A study of Mus musculus with 10 samples.

Results

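The genes described here are 8 immediate early genes measured in mouse liver: the zinc finger factors Egr1, Egr2 and Egr3, the orphan nuclear receptors Nr4a1, Nr4a2 and Nr4a3, and the small immediate early genes Ier2 and Ier3. They are 8 of the 46071 rows of the count table, found by matching the table's mouse identifiers to GENCODE M21 symbols on GRCm38, and all 8 symbols matched. The genes were chosen by their levels in these same 10 libraries, which were known from the whole-table comparisons, so levels and fold changes are given as a description. Their p-values come from the fit over all genes and are no independent support. FL livers (3 libraries) came from offspring of a control mother and a LIRKO father, whose genotype was IRlox/lox with Albumin-Cre+/-, a liver-specific knockout of the insulin receptor. ML livers (3 libraries) came from offspring of a LIRKO mother of the same genotype and a control father. Control livers (4 libraries) came from parents that were both IRlox/lox and Albumin-Cre-/-, of a line bred without Cre for 4 generations. The floxed insulin receptor alleles are therefore carried by the parents of all 3 groups, and Albumin-Cre, whose promoter is active in hepatocytes, by the LIRKO parents. Cre genotype, sex, age, feeding state and time of collection of the offspring are absent from the labels used here. Nothing in the labels ties each library to its own animal. The p-values therefore rest on the spread between these libraries, which may be technical.

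Immediate early genes are transcribed within minutes of a stimulus from factors already present in the cell, and their short-lived transcripts fade soon after it. EGR genes are induced by growth factors through ERK kinases, which act on the serum response factor SRF and its ELK partners, and the EGR proteins bind GC-rich sites and are held back by the NAB corepressors. NR4A genes respond to cAMP through CREB and, in mouse liver, to glucagon and fasting, and Nr4a1 is known to raise genes of glucose production there. IER2 and IER3 are small proteins induced by growth factors and stress.

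The promoters of the NR4A genes are shown because these 3 genes are the related receptors whose levels are compared below, and that of Ier3 because its level differed least from control. The capitals mark the CRE core, TGACG on either strand, the sequence at the centre of sites that CREB binds. Sequences are from RefSeq on GRCm38.p6, from which entries of 5 of the 8 genes were read (Egr2, Nr4a1, Nr4a2, Nr4a3 and Ier3). Egr1 was left out of the search, so its promoter was not read. Each sequence shown is the part of the 250 bases before the RefSeq start that lies ahead of the gene's exons in GENCODE M21. That part is 250 bases at chr15:101266596-101266845 (plus strand) for Nr4a1, which lies inside the annotated span of the gene but in no exon. It is 250 bases at chr2:57124004-57124253 (minus strand) for Nr4a2, 98 bases at chr4:48045055-48045152 (plus strand) for Nr4a3 and 221 bases at chr17:35821463-35821683 (plus strand) for Ier3.
Nr4a1: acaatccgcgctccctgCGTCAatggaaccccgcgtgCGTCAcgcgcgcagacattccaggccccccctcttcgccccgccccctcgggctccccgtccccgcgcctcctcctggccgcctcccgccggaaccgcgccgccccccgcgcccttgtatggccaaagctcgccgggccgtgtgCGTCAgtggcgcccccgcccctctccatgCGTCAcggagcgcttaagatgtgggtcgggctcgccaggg
Nr4a2: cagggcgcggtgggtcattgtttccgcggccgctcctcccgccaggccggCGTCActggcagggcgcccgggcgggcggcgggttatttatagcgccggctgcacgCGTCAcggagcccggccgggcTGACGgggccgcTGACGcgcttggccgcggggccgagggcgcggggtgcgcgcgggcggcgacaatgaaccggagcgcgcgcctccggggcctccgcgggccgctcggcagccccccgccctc
Nr4a3: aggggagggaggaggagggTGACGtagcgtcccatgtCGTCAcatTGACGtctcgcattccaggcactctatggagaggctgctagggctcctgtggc
Ier3: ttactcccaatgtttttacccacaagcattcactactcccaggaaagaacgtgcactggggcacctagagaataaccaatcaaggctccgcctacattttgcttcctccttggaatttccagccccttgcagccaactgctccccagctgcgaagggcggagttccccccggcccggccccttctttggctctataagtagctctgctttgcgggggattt
The core was found 4 times in the 250 bases of each NR4A promoter, with 3 of those of Nr4a3 in the part shown, and 0 times in those of Ier3. The Egr2 promoters, which have several RefSeq starts and are not shown, held it 0 or 2 times each. Over 32851 promoters of 250 bases, 17.8% held it at least once and 0.137% held it 4 times or more. The full 8-base site TGACGTCA, which holds 2 overlapping cores, was in none of the 4 NR4A and Ier3 promoters and in 1.55% of all. The EGR site GCGNGGGCG was found once each in the Nr4a1 and Nr4a2 promoters, starting 60 and 74 bases before the start, and in 4.70% of all promoters. These are matches of letters, not shown to be bound in these livers. Ier3 was picked by its level in these same libraries, and a link between cores and levels was not tested. Nr4a2 also held 4 cores, and its FL and ML libraries overlapped the controls.

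The table holds raw read counts, with totals of 23192571 to 31116742 in FL, 26614915 to 34568205 in ML and 18655506 to 39379940 in controls. Within a gene, levels are given as CPM, counts scaled to library size with TMM factors, and between genes as RPKM, which divides CPM by kilobases of merged exon. Hepatocyte markers (Alb, Ttr, Apoa1, Cps1, Tat) summed to 57530 to 65200 CPM in FL, 53490 to 95200 CPM in ML and 62100 to 83360 CPM in controls, so the liver label held. Insr, the gene deleted in the LIRKO parents' hepatocytes, was at 59.3 to 77.6 CPM in FL, 28.2 to 55.2 CPM in ML and 62.9 to 128 CPM in controls, and the deleted part of it is not given. All ML libraries lay below all controls for Insr, as for 2.91% of genes tested. Its log2 fold change against control was -0.39 in FL and -0.90 in ML. The ML value had an unadjusted p under 0.05 (7.33% of genes, lower) and an adjusted p of 0.301 with edgeR. The cause was not tested. ML 9 and control 1 stood apart in composition. The median short gene (under 1000 bp of exon, 1249 genes) was 1.75 log2 units over its mean in ML 9 and 0.56 in control 1, and between -0.58 and 0.38 in the other libraries.

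Egr1 (ENSMUSG00000038418, GRCm38 chromosome 18, 34859823 to 34864984, plus strand), the best studied EGR factor, was far lower in ML livers than in controls and lower in FL livers. It had 178, 919 and 31 counts in FL 5, FL 6 and FL 7, 34, 7 and 46 counts in ML 8, ML 9 and ML 10, and 825, 2961, 8125 and 10126 counts in controls 1 to 4. As CPM these were 6.59, 26.6 and 0.903 in FL, 0.893, 0.456 and 1.43 in ML, and 47.0, 75.4, 210.2 and 227.0 in controls. All 6 FL and ML libraries lay below all 4 controls. The gap was narrow in FL, where the lowest control was 1.77 times FL 6, and wide in ML, where it was 32.95 times ML 10. Mean CPM was 11.4 ± 13.5 in FL (SD, n = 3), 0.925 ± 0.486 in ML (SD, n = 3) and 139.9 ± 91.9 in controls (SD, n = 4). Against control, edgeR estimated log2 fold changes of -3.62 (SE 0.97) for FL, a level 12.3 times lower, and of -7.19 (SE 1.18) for ML, a level 146.5 times lower. FL 6 decided much of the FL value, which was -5.23 without it. In the FL group the highest library was 29.5 times the lowest, against 3.13 times in ML and 4.83 times in controls.

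Egr2 (ENSMUSG00000037868, GRCm38 chromosome 10, 67535475 to 67542188), known for its part in myelination and lymphocytes, was near the limit of detection. It had 3, 6 and 2 counts in FL, 4, 0 and 0 counts in ML, and 1, 8, 26 and 14 counts in controls. Control 1 had fewer than FL 5, FL 6 and FL 7, so FL and control libraries overlapped, as did ML 8 with control 1. Egr3 (ENSMUSG00000033730, GRCm38 chromosome 14, 70077203 to 70082614) had 0 counts in all 6 FL and ML libraries and 1 count in all controls together, in control 3. A count of 0 allows, at 3 counts, up to 0.111 CPM in FL, 0.196 CPM in ML and 0.171 CPM in controls in the least deep library of each group, counting error only. Neither gene passed the filter on low counts (edgeR's filterByExpr with a minimum count of 10), and neither has a fold change here. The other 6 genes passed it. That filter keeps a gene that reaches the minimum in the group where it is high, so the 6 are not a fair draw of the 8. Nr4a3 passed it through its controls alone, with at most 8 counts in any FL or ML library.

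Nr4a1 (ENSMUSG00000023034, GRCm38 chromosome 15, 101254269 to 101274795, plus strand), also called Nur77, was the NR4A gene with the most reads. It had 26, 116 and 30 counts in FL, 20, 10 and 42 counts in ML, and 205, 784, 582 and 307 counts in controls. As CPM these were 0.963, 3.36 and 0.874 in FL, 0.525, 0.652 and 1.30 in ML, and 11.7, 19.97, 15.1 and 6.88 in controls. All FL and ML libraries again lay below all controls, with FL 6 the highest of the FL libraries as for Egr1. The lowest control was 2.05 times FL 6 and 5.28 times ML 10. Mean CPM was 1.73 ± 1.41 in FL (SD, n = 3), 0.827 ± 0.417 in ML (SD, n = 3) and 13.4 ± 5.52 in controls (SD, n = 4). Against control, the estimate on the log2 scale was -2.94 (SE 0.60) for FL and -4.001 (SE 0.64) for ML. Without FL 6 it was -3.86 for FL. The order of the controls was not the same for Egr1 and Nr4a1: control 4 was the highest for Egr1 and the lowest for Nr4a1, and control 2 was the highest for Nr4a1.

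Nr4a2 (ENSMUSG00000026826, GRCm38 chromosome 2, 57106830 to 57124003, minus strand), known for its part in dopamine neurons, was at 0.778, 0.376 and 0.262 CPM in FL, 0.368, 0.261 and 0.589 CPM in ML, and 1.03, 0.739, 0.518 and 1.12 CPM in controls. FL 5 and ML 10 lay above control 3, so the groups overlapped. On the log2 scale FL differed from control by -0.85 (SE 0.53) and ML by -1.03 (SE 0.54), and FL by -1.39 without FL 5 and -0.56 without FL 7. Nr4a3 (ENSMUSG00000028341, GRCm38 chromosome 4, 48045153 to 48086447, plus strand), the NR4A gene with the fewest reads, had 4, 8 and 0 counts in FL, 4, 0 and 3 counts in ML, and 17, 7, 13 and 15 counts in controls. All ML libraries lay below all controls in CPM, at 0.105, 0 and 0.093 CPM against 0.969, 0.178, 0.336 and 0.336 CPM. The 0 in ML 9 allows, at 3 counts, up to 0.196 CPM, which is above control 2 at 0.178 CPM. FL 6, at 0.232 CPM, lay above control 2. The estimate was -1.76 (SE 0.94) for FL and -2.45 (SE 1.01) for ML, the ML value resting on 7 counts. With control 1 and ML 9 left out these were -1.15 and -1.48, and without FL 7 the FL value was -1.17.

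Ier2 (ENSMUSG00000053560, GRCm38 chromosome 8, 84661331 to 84662852, minus strand, a gene of a single exon) had the smallest gap between groups among the genes whose libraries did not overlap. It was at 30.2, 42.3 and 18.9 CPM in FL, 49.1, 47.3 and 28.4 CPM in ML, and 68.2, 50.8, 97.9 and 82.2 CPM in controls. All FL and ML libraries lay below all controls, yet the lowest control was only 1.20 times the highest FL library and 1.04 times the highest ML library. Mean CPM was 30.5 ± 11.7 in FL (SD, n = 3), 41.6 ± 11.4 in ML (SD, n = 3) and 74.8 ± 20.1 in controls (SD, n = 4). The log2 difference from control was -1.30 (SE 0.36) for FL and -0.85 (SE 0.36) for ML. Ier2 was thus the gene of the 6 whose ML estimate lay closer to control than its FL estimate.

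Ier3 (ENSMUSG00000003541, GRCm38 chromosome 17, 35821684 to 35822923, plus strand), a stress-induced gene also called IEX-1, was at 0.926, 1.01 and 0.582 CPM in FL, 0.368, 0.782 and 0.713 CPM in ML, and 0.627, 2.09, 0.750 and 0.516 CPM in controls. The FL libraries lay within the range of the controls, and ML 8 lay below it. The log2 difference from control was -0.25 (SE 0.56) for FL and -0.71 (SE 0.58) for ML, and it leaned on control 2. Without control 2 the direction turned in FL, at 0.41, and the ML value was -0.04.

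**Figure D1:**
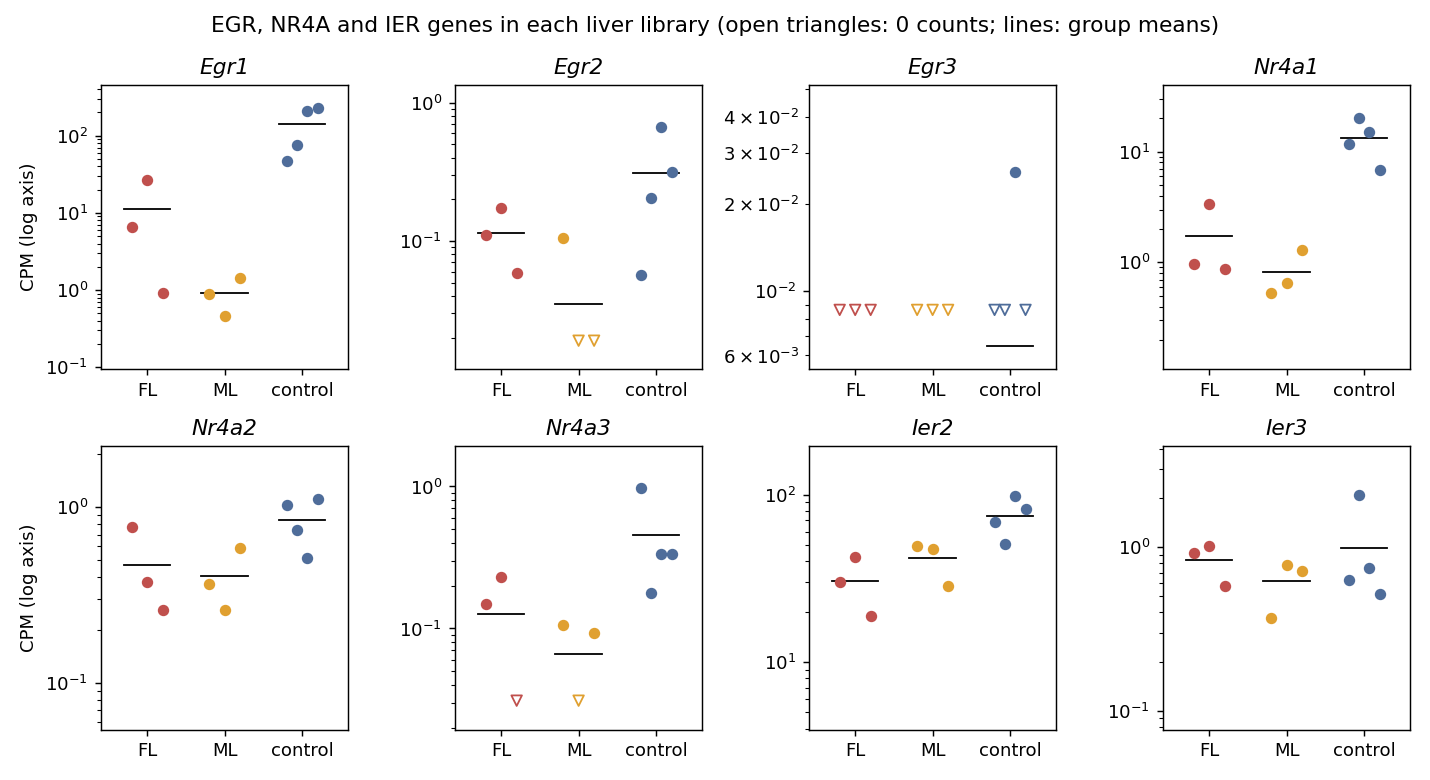
CPM of each gene on a log axis in FL (red), ML (yellow) and control (blue) libraries, with lines at group means and open triangles for libraries with 0 counts, drawn at an arbitrary low position. Egr1 and Nr4a1 show FL and ML points clear of the control points, Ier2 shows all FL and ML points just under the controls, and Ier3 points overlap.

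None of the 8 genes overlaps another gene annotated in GENCODE M21, so no antisense or overlapping gene shares their reads there. In bulk tissue a lower level in every cell and fewer cells that hold the transcript cannot be told apart. Of the 6 tested genes, all 6 had a log2 fold change below 0 in FL, as did 55.3% of the 14820 genes tested, and all 6 in ML, as did 52.9% of genes. Their median log2 fold change was -1.53 in FL and -1.74 in ML, where the median over all genes tested was -0.05 in both. Every FL library lay below every control for 3 of the 6 (Egr1, Nr4a1, Ier2), against 2.9% of genes tested. Every ML library lay below every control for 4 of the 6 (Egr1, Nr4a1, Nr4a3, Ier2), against 2.91% of genes tested. For Nr4a3 this rests in part on 0 counts in ML 9, which allow a level above control 2. The filter also kept Nr4a3 through its controls alone, so its place in the counts above was partly set by the filter. Both comparisons share the 4 control libraries, so the FL and ML values are not separate sightings of 1 control level. These shares describe genes picked for such values.

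None of the 6 had an adjusted p under 0.05 with edgeR's quasi-likelihood test (Benjamini-Hochberg over all 14820 genes), a call made for 0.0135% of genes in FL and 0% in ML against control. The lowest adjusted p of the 6 was 0.398 in FL and 0.301 in ML. At an unadjusted p under 0.05 there were 3 of 6 in FL, all lower (1.9% of genes), and 4 of 6 in ML, all lower (7.33% of genes). The 4 in ML include Nr4a3, which the filter kept through its controls alone. DESeq2 called Egr1 and Nr4a1 lower in both comparisons, where it called 0.351% of genes in FL and 0.31% in ML. Its adjusted p was 0.00473 for Egr1 and 0.000235 for Nr4a1 in FL, and 7.58e-14 for Egr1 and 4.62e-08 for Nr4a1 in ML. Limma-voom called 0 of the 6 in either comparison (0.00675% of genes in FL and 0% in ML), with 4 in FL (3.25% of genes) and 3 in ML (9.28% of genes) at an unadjusted p under 0.05. Without the filter on low counts, edgeR gave Nr4a1 an adjusted p of 0.019 in ML. The fold changes differed less between tools than the adjusted p: for Egr1 the log2 value was -3.61 with DESeq2 and -4.39 with limma-voom in FL, and -7.21 and -6.96 in ML.

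**Figure D2:**
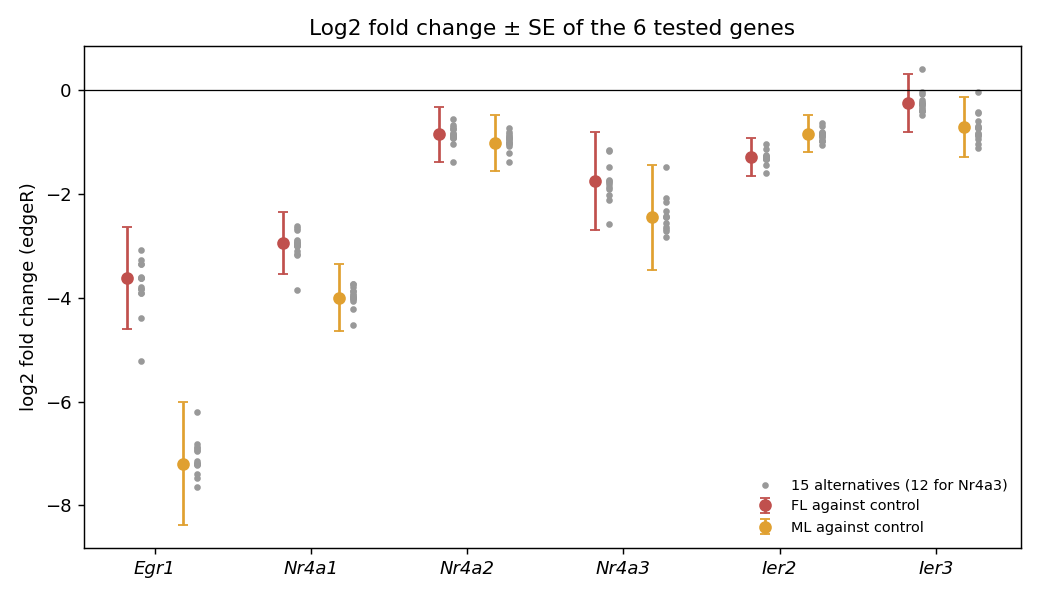
Log2 fold change with its SE for the 6 tested genes in FL (red) and ML (yellow) against control, from edgeR, with grey points for the values under the alternative settings. Egr1 in ML sits lowest at -7.19, Ier2 has its FL point below its ML point, and the grey points of Ier3 cross 0 in FL.

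FL and ML livers differed most for Egr1 among these genes, though their libraries overlapped. Its log2 fold change in FL against ML was 3.57 (SE 1.03), and 1.98 without FL 6. FL 7, at 0.903 CPM, lay between ML 8 at 0.893 CPM and ML 10 at 1.43 CPM. Nr4a1 was at 1.06 (SE 0.61), and 0.15 without FL 6. The others lay between -0.45 (Ier2) and 0.70 (Nr4a3), and Nr4a3 turned to -0.12 without FL 6. Nr4a2, at 0.17, turned to -0.37 without FL 5 and to -0.05 without ML 9. Thus 1 of 6 lay below 0, against 47.9% of genes, and every FL library lay above every ML library for 0 of 6, against 16.5% of genes. None of the 6 had an adjusted p under 0.05 with edgeR, a call made for 0.00675% of genes, and 1, Egr1, had an unadjusted p under 0.05, being higher in FL (7.59% of genes). Limma-voom called 0 (0.00675% of genes) with 0 at an unadjusted p under 0.05 (13.3% of genes). DESeq2, which called 1.67% of genes, gave no adjusted p for any of the 6.

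Per kilobase of exon, the order of the genes differed between groups. In FL the mean was 20.01 ± 7.67 RPKM for Ier2, 2.53 ± 3.01 for Egr1, 0.743 ± 0.201 for Ier3 and 0.493 ± 0.402 for Nr4a1 (SD, n = 3). In ML it was 27.3 ± 7.51 RPKM for Ier2, 0.549 ± 0.196 for Ier3, 0.236 ± 0.119 for Nr4a1 and 0.206 ± 0.108 for Egr1 (SD, n = 3). In controls it was 49.1 ± 13.2 RPKM for Ier2, 31.2 ± 20.5 for Egr1, 3.82 ± 1.57 for Nr4a1 and 0.880 ± 0.650 for Ier3 (SD, n = 4). Ier2 ranked highest in all 3 groups, while Egr1 came next in FL and controls and below Ier3 and Nr4a1 in ML. Within each group neighbours in this order often lay within their spread: Nr4a1 and Egr1 in ML, Ier3 and Nr4a1 in FL, and Ier2 and Egr1 in controls. Read within each library, the order changed between libraries for Nr4a1 and Egr1 in ML and for Ier3 and Nr4a1 in FL. Ier2 was above Egr1 in every control library, by least in control 4 (54.0 against 50.6 RPKM). The place of Egr1 in FL varied between libraries. It was at 5.93 RPKM in FL 6, and at 0.201 RPKM in FL 7, below Ier3 (0.515 RPKM) and Nr4a1 (0.249 RPKM) there. Nr4a2 was at 0.116 ± 0.067 RPKM in FL, 0.100 ± 0.041 RPKM in ML and 0.210 ± 0.068 RPKM in controls, and Egr2, Nr4a3 and Egr3 were under 0.1 RPKM on average in all groups.

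Shares of the summed counts are taken within a library and do not depend on scaling between libraries. They do not take out shifts that follow exon length, which is 1522 bp for Ier2 and 4484 bp for Egr1. ML 9 and control 1, which stood apart in short genes, held the lowest Egr1 shares of their groups. Egr1 made up 16.6, 35.9 and 4.18% of the counts of the 8 genes in FL 5, FL 6 and FL 7, 1.74, 0.923 and 4.38% in ML 8, ML 9 and ML 10, and 36.3, 50.5, 64.6 and 71.3% in controls 1 to 4. Ier2 made up 76.0, 57.1 and 87.6% in FL, 95.4, 95.7 and 87.3% in ML, and 52.6, 34, 30.1 and 25.8% in controls. All FL and ML libraries held a smaller Egr1 share than any control, FL 6 by less than 1 percentage point. Egr1 over Ier2 as an RPKM ratio was 0.074, 0.214 and 0.016 in FL, 0.0062, 0.0033 and 0.017 in ML, and 0.234, 0.504, 0.729 and 0.937 in controls, the lowest control being just above FL 6. Egr1 over Nr4a1 was 5.36, 6.20 and 0.809 in FL, 1.33, 0.548 and 0.857 in ML, and 3.15, 2.96, 10.9 and 25.8 in controls. By that ratio ML libraries lay below all controls, while FL 5 and FL 6 lay within the control range.

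**Figure D3:**
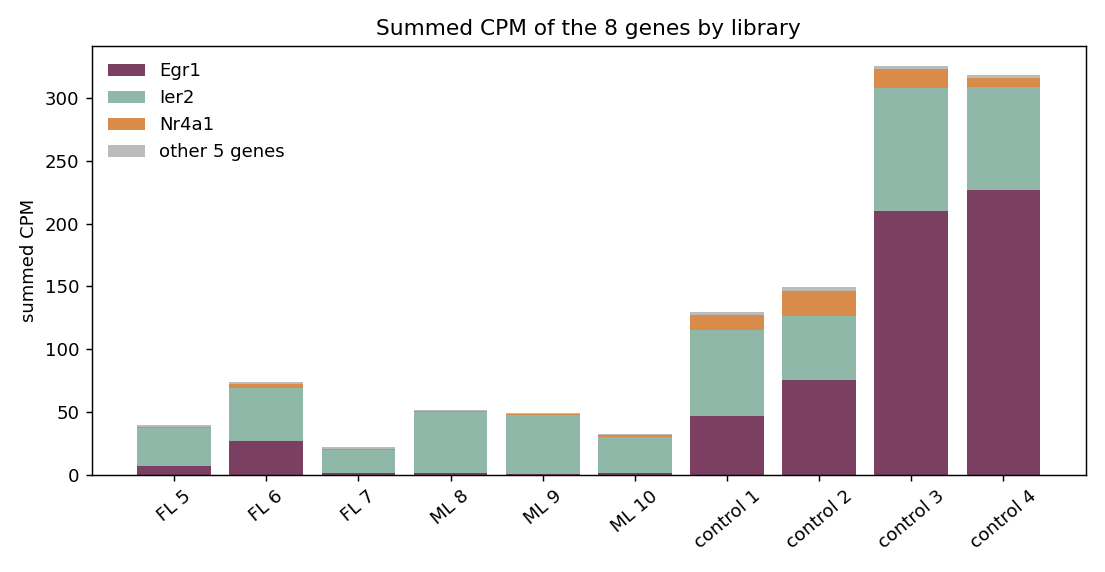
Summed CPM of the 8 genes in each library, stacked by Egr1, Ier2, Nr4a1 and the other 5 genes, with FL, ML and then control libraries along the axis. FL and ML bars reach 21.6 to 74.0 CPM and are mostly Ier2, and control bars reach 129.6 to 325.5 CPM with a large Egr1 part.

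Fos, Jun and Gdf15 were among the genes whose pattern over the 10 libraries was nearest to both Egr1 and Nr4a1. Likeness was the root mean square difference in log2 CPM after centring each gene on its own mean, ranked over 11194 genes whose mean CPM reached 1. The 8 genes described here were left out of the ranking. For Egr1 the nearest of the others were Fos (1.31), Gdf15 (1.92), Rgs16 (1.99) and Jun (2.10). For Nr4a1 they were Gdf15 (0.59), Jun (0.93), Fos (1.01) and Rgs1 (1.04). Fos, an AP-1 subunit, was at 2.30 ± 2.22 CPM in FL (SD, n = 3), 0.433 ± 0.244 CPM in ML (SD, n = 3) and 11.1 ± 6.55 CPM in controls (SD, n = 4). Gdf15, a stress-induced cytokine, was at 6.68 ± 5.76 CPM in FL (SD, n = 3), 5.00 ± 1.92 CPM in ML (SD, n = 3) and 59.4 ± 39.7 CPM in controls (SD, n = 4). These distances are a description over libraries that share their groups. For Ier2 the nearest were Cyp8b1 (0.34), a bile acid hydroxylase, then Amt, Fdft1, Ank3 and Klhl26 (0.38 to 0.42). Egr1 and Nr4a1 were 1.70 apart by the same measure, nearer than Egr1 and Gdf15. Among all 14820 tested genes Nr4a1 ranked 3 in nearness to Egr1, but Egr1 ranked only 1052 in nearness to Nr4a1. Nr4a1 and Nr4a3 were 1.36 apart, Nr4a1 and Nr4a2 1.57, and Egr1 and Ier2 2.80.

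**Figure D4:**
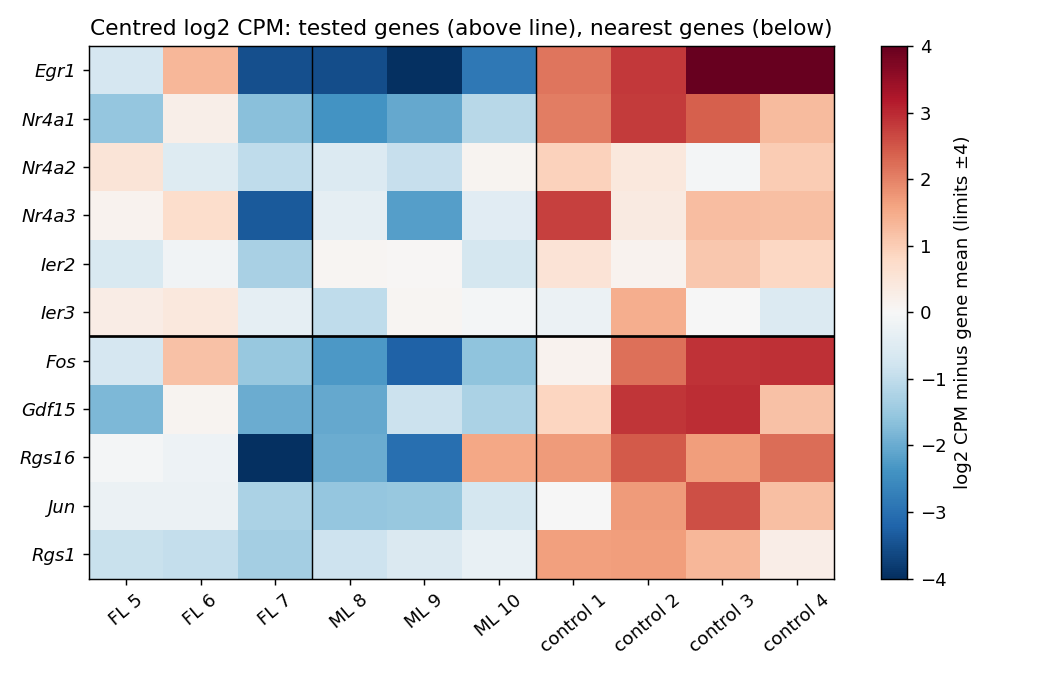
Log2 CPM minus each gene's mean, with colours limited at ±4, for the 6 tested genes and the 4 genes nearest to each of Egr1 and Nr4a1, in FL, ML and control libraries. The nearest genes are mostly blue in FL and ML columns and red in control columns, with FL 6 pale red for Egr1 and Fos and ML 10 red for Rgs16, while Nr4a2 is pale in every library and Ier3 in all but control 2.

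Gene lists of the pathways around these factors were then read in the same fit. No list member passed in edgeR at an adjusted p under 0.05 in FL or ML against control. Of the other immediate early genes 25 of 26 tested lay below 0 in FL at a median log2 fold change of -1.18, and 26 of 26 in ML at -1.46. For some of these genes control 2 was far above the other controls, while Jun and Fosb were highest in control 3. The list was not read without control 2. At an unadjusted p under 0.05 there were 15 of 26 lower in FL, where 1.9% of all genes were, and 15 of 26 lower in ML, where 7.33% of all genes were. DESeq2 called 5 lower in each, beside 0.351% of all genes in FL and 0.31% in ML, and limma-voom called 0 with 12 in FL and 10 in ML at an unadjusted p under 0.05 (3.25% of all genes in FL and 9.28% in ML). Jun, an AP-1 subunit, was at -2.16 (SE 0.56) for FL and -2.86 (SE 0.58) for ML, and Ccn2, a matricellular growth factor target, was at -1.87 (SE 0.45) in FL. Gadd45g, a stress sensor, was at -3.32 (SE 0.79) in FL and Ccn1 at -1.66 (SE 0.43) in ML. Fosb had 3, 6 and 4 counts in FL, 1, 0 and 1 counts in ML and 4, 51, 160 and 134 counts in controls, so no fold is given for ML, and the log2 value for FL was -3.99 (SE 0.86).

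Genes known to act upstream of the EGR and NR4A genes were read next. Of 15 upstream transcription factors (SRF, ELK, CREB, CRTC and MEF2 genes), 7 lay below 0 in FL at a median of 0.03, and 0 had an unadjusted p under 0.05 by edgeR, DESeq2 or limma-voom. Creb1, which encodes a cAMP response factor, had the lowest p of these in FL, at 0.50 (SE 0.32). In ML 12 lay below 0 at a median of -0.63, and 3 of 15 had an unadjusted p under 0.05, all lower, against 7.33% of all genes tested: Elk4 at -1.44 (SE 0.48), Mef2d at -1.68 (SE 0.63) and Crtc3 at -1.15 (SE 0.49). DESeq2 and limma-voom called 0 of the 15 in ML, with 3 and 2 at an unadjusted p under 0.05. Of 20 ERK cascade genes, 9 lay below 0 in FL at a median of 0.01 with 0 at an unadjusted p under 0.05 in the 3 tools. Egfr, the EGF receptor, was at 998 ± 522 CPM in FL (SD, n = 3) and 553.9 ± 270.0 CPM in controls (SD, n = 4), or 0.85 (SE 0.44) on the log2 scale. In ML 17 lay below 0 at a median of -0.26, with Erbb3, a growth factor receptor, at -1.13 (SE 0.41) and Hras at 1.48 (SE 0.54), the pair with an unadjusted p under 0.05. These are 2 of 20 genes, a share no larger than the 16.1% of all genes tested. DESeq2 and limma-voom called 0 of these 20 in ML, with 3 and 2 at an unadjusted p under 0.05. Over all 14820 genes in ML, 2958 had such a p with DESeq2 and 9.28% with limma-voom. Hras was at 282 CPM in ML 9 and 55.3 and 71.2 CPM in ML 8 and ML 10.

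Genes induced by ERK signalling, among them the DUSP, Sprouty and SPRED genes whose products damp it and the ETS factors Etv4 and Etv5, lay below 0 for 11 of 14 in FL at a median of -0.37 and 12 of 14 in ML at -1.004. At an unadjusted p under 0.05 there was 1 in FL, Dusp2 at -1.43 (SE 0.51), and 5 in ML, 4 lower and 1 higher, beside 3.53% of all genes in FL and 16.1% in ML. DESeq2 called 0 in either, with 1 in FL and 5 in ML unadjusted, and limma-voom called 0 with 1 and 3. Over all 14820 genes, 669 in FL and 2958 in ML had an unadjusted p under 0.05 with DESeq2. With limma-voom 3.25% in FL and 9.28% in ML did. In ML, Dusp6, an ERK phosphatase, was at -1.56 (SE 0.52) and Spry1, a receptor signalling inhibitor, at -0.96 (SE 0.37), while Phlda1 was at 1.66 (SE 0.63). Of 7 relatives and partners, 2 lay below 0 in FL at a median of 0.31 and 1 in ML at 0.52, with 0 at an unadjusted p under 0.05 in edgeR. DESeq2 and limma-voom called 0 of the 7 in either, with 1 each in FL and 0 in ML unadjusted. Nab2, a corepressor that EGR1 itself induces, was at 12.9 ± 5.504 CPM in FL (SD, n = 3), 8.03 ± 3.79 CPM in ML (SD, n = 3) and 7.41 ± 2.55 CPM in controls (SD, n = 4). Ier5l, an Ier2 relative, was at 1.29 (SE 0.59) for FL and 1.19 (SE 0.60) for ML.

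Genes known to lie downstream went in both directions. Of 8 EGR1-linked genes, 2 lay below 0 in FL at a median of 0.47 and 5 in ML at -0.23. Icam1, an adhesion receptor, was at 1.17 (SE 0.46) in FL and Vegfa, a vascular growth factor, at -1.02 (SE 0.40) in ML. Both had an unadjusted p under 0.05 with edgeR, as had 2 of the 8 in each comparison, beside 3.53% of all genes in FL and 16.1% in ML. DESeq2 called 0 of the 8 in FL, with 2 at an unadjusted p under 0.05, as had 669 of all 14820 genes. Limma-voom called 0 with 2 unadjusted in FL and 2 in ML, beside 3.25% of all genes in FL and 9.28% in ML. Of 6 gluconeogenic genes linked to NR4A receptors, 6 lay below 0 in FL at a median of -0.48 and 3 in ML at -0.25. G6pc, which releases free glucose, was at 196, 185 and 498 CPM in FL, 187, 131 and 735 CPM in ML, and 835, 627, 986 and 1001 CPM in controls, or -1.56 (SE 0.59) for FL and -1.30 (SE 0.59) for ML on the log2 scale. FL libraries lay below the controls for G6pc, and ML 10 lay among them. Ppargc1a, a coactivator of glucose production, was at -1.27 (SE 0.48) in FL, and Eno3, a glycolytic enolase, at 2.53 (SE 0.89) in ML, where ML 9 had 55.0 CPM and ML 8 and ML 10 had 2.15 and 3.63 CPM. With edgeR, those with an unadjusted p under 0.05 were G6pc and Ppargc1a in FL and Eno3 and G6pc in ML. Of all genes, 3.53% in FL and 16.1% in ML had such a p. DESeq2 called 0 in either with 2 and 1 unadjusted, beside 669 and 2958 of all 14820 genes. Limma-voom called 0 with 2 and 1 unadjusted, beside 3.25% and 9.28% of all genes.

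**Figure D5:**
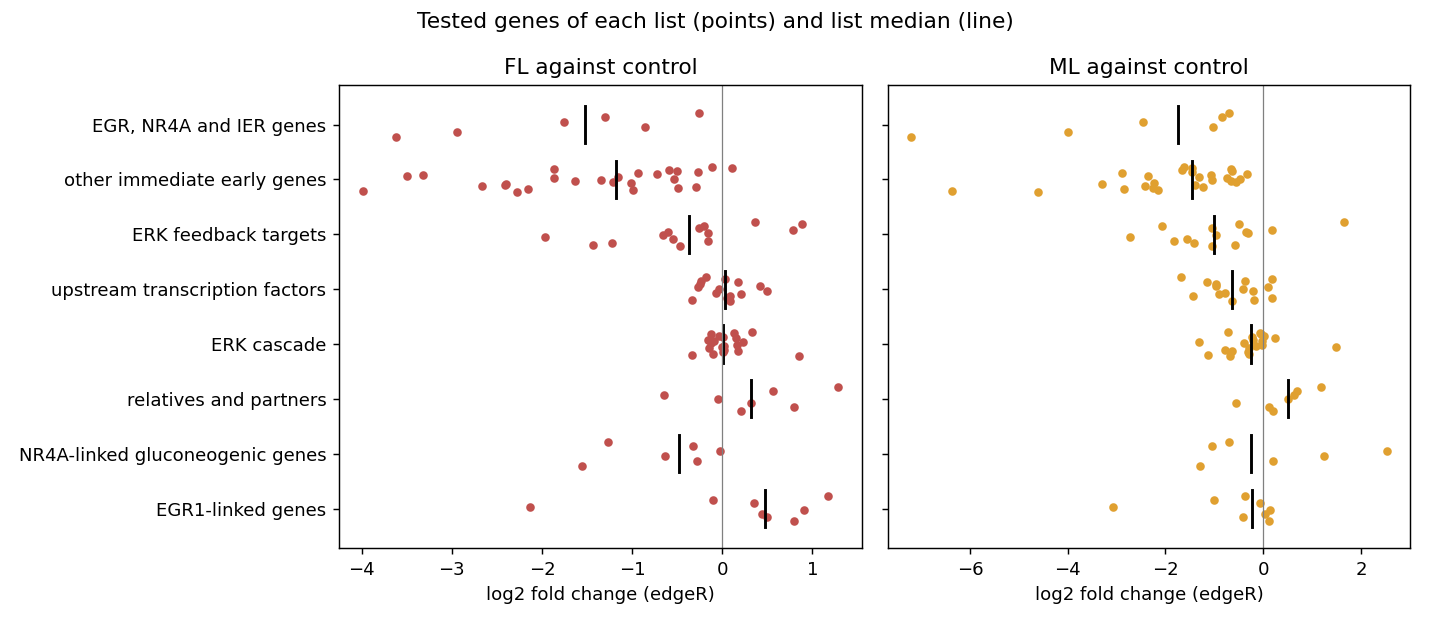
Log2 fold changes from edgeR of the tested genes of each list (points) with the list median (black line), in FL and in ML against control. The EGR, NR4A and IER genes and the other immediate early genes lie mostly left of 0 in both panels, and the ERK cascade and upstream factors centre near 0 in FL. The Fosb point in ML rests on 2 counts.

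EGR and NR4A genes are also expressed in macrophages and endothelial cells, so markers of those cells were read beside them. Kupffer cell markers (5 genes, none at 0) summed to 189.6 to 275 CPM in FL, 183 to 868 CPM in ML and 188 to 372 CPM in controls. Sinusoidal endothelial markers (5 genes, none at 0) summed to 105 to 120 CPM in FL, 82.6 to 196 CPM in ML and 116 to 148 CPM in controls. Erythroid markers (5 genes, none at 0) summed to 127 to 249 CPM in FL, 312 to 2114 CPM in ML and 184 to 625 CPM in controls. Stellate cell markers (5 genes, none at 0) summed to 152 to 169.9 CPM in FL, 176 to 399.8 CPM in ML and 173 to 265 CPM in controls, and cholangiocyte markers (5 genes, none at 0) to 32.8 to 68.6 CPM in FL, 21.4 to 67.1 CPM in ML and 28.7 to 55.7 CPM in controls. T and NK cell markers (5 genes, none at 0) summed to 0.815 to 2.00 CPM in FL, 2.45 to 10.2 CPM in ML and 1.39 to 2.22 CPM in controls, and B cell markers (4 genes, none at 0) to 1.37 to 2.08 CPM in FL, 1.43 to 9.59 CPM in ML and 0.688 to 5.36 CPM in controls. Neutrophil markers (4 genes, up to 2 at 0 in a library) summed to 1.78 to 2.81 CPM in FL, 0.868 to 8.15 CPM in ML and 0.404 to 4.56 CPM in controls. ML 9 held the highest of these sums among ML libraries for Kupffer, endothelial, stellate, T and NK, B, neutrophil and erythroid markers. Its hepatocyte marker sum was the highest too, at 95200 CPM against 53490 CPM in ML 8 and 82550 CPM in ML 10. The hepatocyte markers differed in direction. Among ML libraries, ML 9 was the highest for Apoa1 (32766 CPM) and Ttr (12240 CPM). It was the lowest for Cps1 (1373 CPM) and Tat (193 CPM), and Alb lay between ML 8 and ML 10. The cholangiocyte sum of ML 9, 21.4 CPM, was the lowest. The part of other cell types in the lower levels was not tested. ML 9 also stood apart in short genes, so leaving it out does not test that part. Without ML 9 the log2 fold change in ML was -6.90 for Egr1, -3.86 for Nr4a1 and -0.93 for Ier2. With control 1 and ML 9 both left out it was -7.20, -3.94 and -0.99, and with the trends in GC content and exon length taken out it was -6.82, -3.87 and -1.06.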

How the data were processed

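Liver RNA was poly(A) selected, and 10 strand-directional libraries were read from both ends (Illumina HiSeq), per the labels' protocols. The authors deposited raw counts of reads per gene, made with STAR and featureCounts on GRCm38, per the submitters' processing notes. Their versions, the annotation used for counting and its strandedness: not given in the sources used here. Symbols, coordinates and exon lengths came from GENCODE M21, which matched 45229 of 46071 rows. Genes were tested with edgeR 4.0.16 (R 4.3.3): TMM scaling, filterByExpr (minimum count 10) and a robust quasi-likelihood F test over all 10 libraries with a coefficient per group, which left 14820 genes and 7 residual degrees of freedom. The threshold was a Benjamini-Hochberg adjusted p under 0.05. The SE is the log2 fold change divided by the square root of F. Alternatives were DESeq2 1.42.0, limma-voom (limma 3.58.1), RLE factors, no filter, the compared groups only, leaving out libraries, an offset that takes out trends in GC content and exon length, and a surrogate variable (sva 3.50.0). No library was taken as a repeat of another, since same-group pairs gave a chi-square of 82.5 to 573 for each degree of freedom.

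The genes and lists were chosen with earlier results of these data known. The text names all 8 genes, the genes of each list with the lowest unadjusted p (up to 4 per comparison, some of which are given by count alone), and up to 5 genes nearest in pattern to Egr1, Nr4a1 and Ier2, without Gm or Rik symbols. A gene that the rule names is not reported here, nor the calls that rest on it. Insr was named as the parents' targeted gene. Promoter letters came from RefSeq on GRCm38.p6.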

Additional observations from a re-analysis of the deposited data

Results flagged for a closer look

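For Ier3 control 2 stood apart from the other controls, at 2.09 CPM against 0.516 to 0.750 CPM, and its gap to the nearest control was 0.851 of the range of the 4 controls, above Dixon's 95% critical value for 4 values. For Egr3 the gap was 1 of the range, which rests on a single count in control 3 with 0 counts in the other controls. Chance flags about 1 in 20 groups by this measure.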

How the results depend on the processing

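No paired analysis was possible because the groups share no replicate number. In FL and ML against control, the log2 fold changes of Egr1, Nr4a1, Nr4a2 and Ier2 stayed below 0 under all 15 alternatives, running from -7.64 to -6.21 for Egr1 and from -4.53 to -3.74 for Nr4a1 in ML, and from -5.23 to -3.07 and from -3.86 to -2.62 in FL. Nr4a3 stayed below 0 in the 12 alternatives where it passed the filter, and Ier3 in 14 of 15 in FL (the exception, 0.41, without control 2) and 15 of 15 in ML. In FL against ML, Nr4a2 and Nr4a3 changed sign in 4 of 14 and 1 of 13. The median over the 6 genes ran from -2.09 to -1.11 in FL, from -2.02 to -0.93 in ML and from 0.23 to 0.98 in FL against ML with a library left out. The ML medians without control 1 (-0.93) and without control 4 (-0.94) cover 5 genes, since Nr4a3 failed the filter there. The number of genes called over the whole table, 2 in FL and 0 in ML against control and 1 in FL against ML, was 52, 46 and 248 with DESeq2 and 1, 3 and 2 with no filter. It was 1 in FL with limma-voom. In FL against ML it was 0 with the compared groups only and 2 with the trend removed. With a library left out it ran from 0 to 2 in FL, from 0 to 1 in ML and from 0 to 1 in FL against ML. The cause was not tested. Depth limits Egr2, Egr3 and Nr4a3, with at most 26 counts in any library.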

Other observations

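Egr4, the remaining EGR gene, had 0 counts in all 10 libraries. Rgs16, a regulator of G protein signalling near Egr1 in pattern, was at 28.03 ± 22.4 CPM in FL (SD, n = 3), 49.8 ± 71.5 CPM in ML (SD, n = 3) and 186.9 ± 51.0 CPM in controls (SD, n = 4). Rgs1, near Nr4a1 in pattern, was at 1.09 ± 0.192 CPM in FL (SD, n = 3), 1.55 ± 0.290 CPM in ML (SD, n = 3) and 5.76 ± 2.13 CPM in controls (SD, n = 4). Cyp8b1, nearest to Ier2 in pattern, was at 123.0 ± 96.3 CPM in FL (SD, n = 3), 174 ± 43.2 CPM in ML (SD, n = 3) and 279 ± 79.0 CPM in controls (SD, n = 4).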
